A study of Mus musculus with 6 samples.

Results

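The Wnt genes described here are 96 probe sets for 49 genes that encode Wnt ligands, frizzled receptors, the coreceptors Lrp5 and Lrp6, dishevelled and axin proteins, β-catenin, TCF/LEF factors, and the dickkopf and secreted frizzled-related inhibitors. They were taken from 45137 probe sets for 18193 genes by a pattern on the single gene symbol of each probe set, with Wnt7a left out. The pattern itself used no measured value, but it was chosen with earlier results of these data known. The pattern also took in Fzd10os, named as an opposite-strand transcript of Fzd10 and not a receptor, and it found Tcf7l1 and Tcf7l2 but no probe set for Tcf7 itself. Of the 96 probe sets, 74 (47 genes) lay on array type A and 22 (18 genes) on array type B, with 16 genes on both.

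Total RNA came from lumbar spinal cord, segments L3 to L5, of mice at postnatal day 27, in pools of 3 cords each. A first and a second pool (RNA 450 and RNA 500) were labelled Egr3-deficient and the third (RNA 499) wild type, and each pool was hybridised once to each array type. Egr3 is an immediate early transcription factor needed for muscle spindles, and the series title states a search for genes of fusimotor neurons, which innervate them. The sources used here do not give strain, sex or the allele behind the deficiency, all cell types of the segments were in the RNA, and pooling hides the spread between animals. A label on acclimatization is given for the second deficient pool and the wild-type pool and is missing for the first deficient pool.

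Wnt proteins are secreted, lipid-modified signals that bind a frizzled receptor together with Lrp5 or Lrp6. In the canonical branch, dishevelled then blocks a destruction complex built on axin and Apc, so that β-catenin escapes degradation and joins TCF/LEF factors on target genes. Other branches act without β-catenin on cell polarity and axon guidance, and in the developing cord Wnt signals pattern the dorsal side and guide growing axons.

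The values are scaled fluorescence intensities per probe set, without a count or depth behind them, and the small number of arrays and, for dim probe sets, the background limit the precision. Array medians were lower in both deficient pools (50.3 and 57.9 on A, 76.2 and 83.8 on B) than in wild type (60.1 and 91.8), and differences below are log2(intensity + 16) after quantile normalization, as the mean of the 2 deficient pools minus the wild-type pool. Egr3 itself read 24.9 and 52.7 in the deficient pools and 40.6 in wild type on A, and 210 and 107 against 75.3 on B. On A the first deficient pool thus lay below wild type and the second above it, and on B both lay above it. Whether these probe sets lie in the deleted part is not known here, so Egr3 does not check the labels. Marker levels below are sums of deposited intensities over 1 probe set per gene, the one with the highest mean. Counts are of kept probe sets after quantile normalization, so sums and counts can point in different directions. Skeletal muscle markers summed to 4456 and 5704 in the deficient pools and 180 in wild type on A, with 13 of 13 kept probe sets at least 2-fold higher in both pools and 9 past the test, and to 222 and 340 against 197 on B. On A, liver markers summed to 254 and 7348 against 104 (7 of 7 kept above wild type in both pools), choroid plexus markers to 286 and 2551 against 131 (5 of 5), microglial markers to 2138 and 2012 against 1684 (8 of 9), ependymal markers to 239 and 402 against 165 (3 of 3), meningeal markers to 4501 and 6796 against 3899 (6 of 9), and endothelial markers to 2109 and 1543 against 1476 (8 of 8). Most of the choroid plexus rise was Ttr, at 150.5 and 2408 against 24.0. Aqp1 rose less (71.3 and 77.1 against 41.7), and Folr1 hardly moved (39.4 and 44.5 against 37.3). Kcne2, under the filter, read lower (2.19 and 4.34 against 12.2). The ependymal rise lay in Rarres2 and Mia, while Foxj1, under the filter, did not rise (37.0 and 24.9 against 42.2). On B, Ttr read 584 and 6739 against 50.9 and was past the test. The ependymal gene Tmem212 on B read 92.8 and 161 against 46.9, and was not past it. On A, neuronal markers summed to 9193 and 9845 against 11880 (6 of 8 kept below wild type in both). Oligodendrocyte markers summed to 17010 and 20570 against 24750 (5 of 14 below), and motor neuron markers to 456 and 452 against 551. Astrocyte markers summed to 4615 and 4600 against 4951 (5 of 10 below and 3 above). That near-level sum held opposite changes, with Aqp4 at 451 and 699 against 1774 and Gfap at 2843 and 2442 against 1907. On B the neuronal sum was 21960 and 23290 against 20630, but after normalization 5 of 8 kept probe sets lay below in both. Their median difference was −0.47 on B and −0.68 on A. Oligodendrocyte markers, with 1 gene, summed to 13380 and 8695 against 6477. After normalization the probe set behind that sum lay on both sides of wild type, and the other kept one above it. Motor neuron markers, also with 1 gene, summed to 94.8 and 149 against 76.4, and astrocyte markers to 11950 and 12440 against 12320. Of 6 kept astrocyte probe sets on B, 2 (Aqp4 and Slc1a2) were past the test as lower, beside 0.607% of all. The 5 Hox genes of lumbar level measured on A summed to 1205 and 1268 against 1086 (3 of 6 kept above and 2 below), and red blood cell markers, with 2 genes, to 114 and 62.7 against 21.1. That rise was Alas2 (104 and 49.2 against 7.04), while Hba-a1, under the filter, did not rise (9.94 and 13.5 against 14.1). For 18S RNA, signal at the 3′ end over that at the 5′ end was 2.27 and 1.08 in the deficient pools and 0.0493 in wild type on A, and 1.43 and 0.945 against 0.0605 on B. The same ratio for pyruvate carboxylase was 4.2 and 3.8 against 2.42 on A, and 5.82 and 4.02 against 3.85 on B. For Gapdh it was 0.858 and 0.975 against 0.734 on A, and 0.923 and 0.805 against 0.755 on B. The part of these differences in the results below was not tested.

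No Wnt probe set passed the test in either direction. In these bulk pools, fewer cells of a type and less RNA per cell cannot be told apart. On array type A, 26 of 74 member probe sets reached the intensity filter (about 36.7), and on array type B 15 of 22 did (about 55.9). On A, limma called 0 kept members higher and 0 lower at an adjusted p under 0.05, against 0.0663% and 0.00% of all kept probe sets, and an unadjusted p under 0.05 was found for 1 member above and 2 below wild type, beside 7.93% and 12.7% of all. On B limma called 0 and 0, beside 1.02% and 0.607% of all, and 2 members above and 0 below wild type had an unadjusted p under 0.05, beside 7.40% and 6.83%. The lowest adjusted p of a member was 0.189 on A and 0.146 on B.

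More kept members lay above wild type than below it, near the share of all probe sets on A and above that share on B. On A, 13 of the 26 kept members lay above wild type in both deficient pools, 8 below in both and 5 on both sides, where 47.9% and 34.8% of all kept probe sets lay above and below. The members' median difference on A was 0.17, beside 0.11 for all kept probe sets. On B, 11 of 15 lay above, 2 below and 2 on both sides, beside 38.9% and 36.6% of all, with a median of 0.28 beside 0.00, but with arrays scaled on the 100 probe sets that both array types carry, 4 lay above and 11 below. With it the median over all kept probe sets on B became −0.66 and the members' median −0.31. No member on A was at least 2-fold higher or lower in both pools, where 1.20% and 4.35% of all kept probe sets were. On B, 2 members were at least 2-fold higher and 0 lower, beside 4.27% and 1.80% of all, and under the shared scaling none was 2-fold higher.

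**Figure D1:**
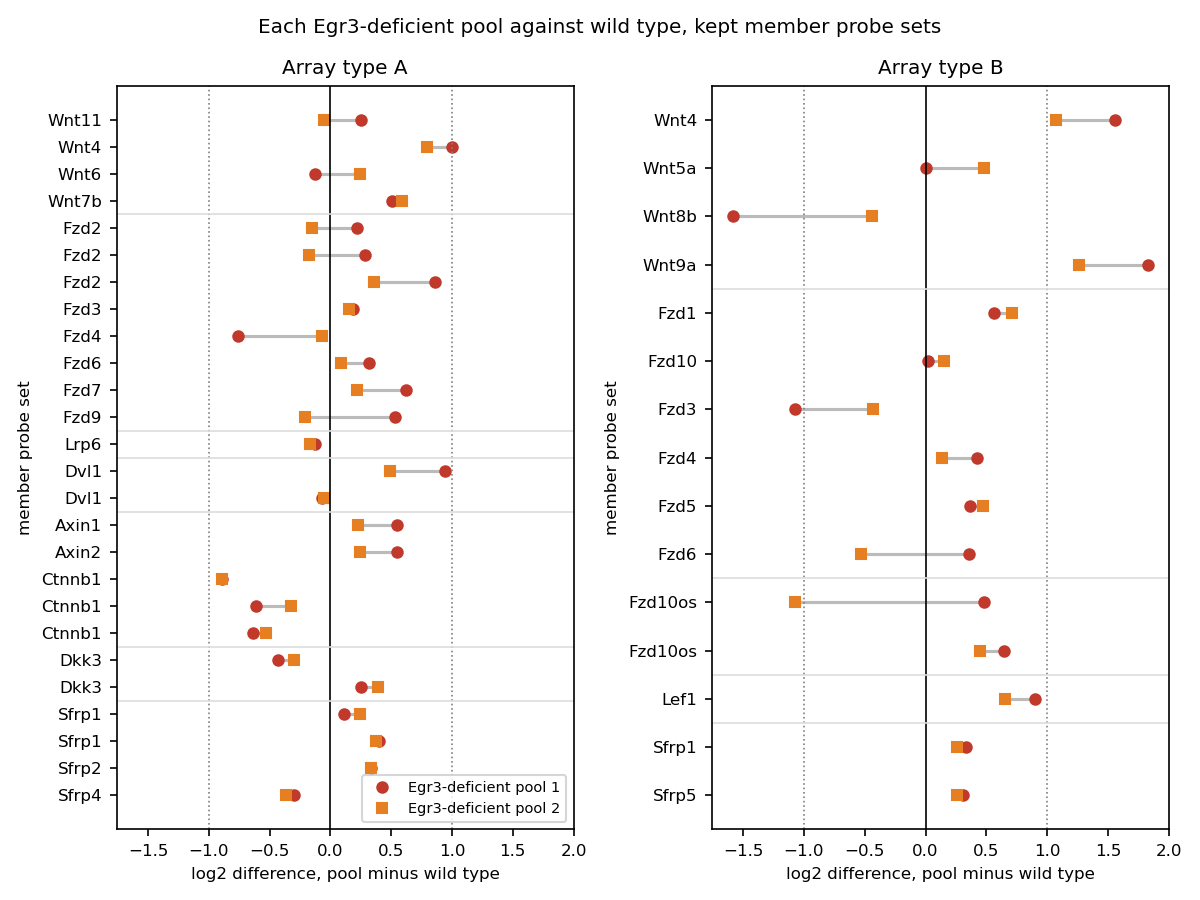
Log2 difference (pool minus wild type, log2(intensity + 16) after quantile normalization) of each kept member probe set, array type A left and B right, with red circles for the first and orange squares for the second pool labelled Egr3-deficient, grey rules between roles and dotted lines at 2-fold. Wnt4 and Wnt9a lie furthest to the right on B and the 3 Ctnnb1 probe sets lie left of zero on A; on B, 7 of the 11 members to the right of zero in both pools are no longer so when arrays are scaled on the shared probe sets.

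Promoter stretches of 4 genes are shown here as examples, of genes whose probe sets stood apart from wild type (Wnt4, Wnt9a, Ctnnb1) or differed from each other (Dvl1). The binding core of EGR proteins is rich in G and C, as these promoters are. None of the 4 passed the test. Others of both kinds, such as Wnt8b, Fzd3, Fzd4, Fzd6 and Dkk3, are not shown, so matches in these 4 say nothing about either kind. They are RefSeq sequence of GRCm38.p6, 5′ to 3′ on the plus strand, and the capitals mark a match to the EGR core GCGNGGGCG on either strand.
Ctnnb1, chr9:120933335-120933399: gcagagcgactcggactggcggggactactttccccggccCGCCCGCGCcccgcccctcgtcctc
Wnt9a, chr11:59306798-59306886: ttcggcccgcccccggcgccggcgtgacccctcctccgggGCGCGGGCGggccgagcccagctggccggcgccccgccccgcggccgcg
Dvl1, chr4:155847343-155847401: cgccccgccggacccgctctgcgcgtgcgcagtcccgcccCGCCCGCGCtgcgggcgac
Wnt4, chr4:137277535-137277634: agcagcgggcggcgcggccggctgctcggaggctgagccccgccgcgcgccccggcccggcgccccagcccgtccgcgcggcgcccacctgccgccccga
The stretches end 1 base before the start site, except that of Wnt9a, which ends 44 bases before it. Ctnnb1 has another start site further downstream, and the same match lies 203 to 195 bases before that one. The Wnt4 window held no match, which says only that these letters are not in it. Over 33 member genes with an entry, 11 of 41 promoters of 300 bases held the EGR core (26.8%), beside 5.55% of all 32851 promoters and 12 of 63 promoters of the other Wnt pathway genes (19%). These are counts of promoters, which can overlap within a gene. The same Ctnnb1 match was counted in overlapping promoters, as was a match of Csnk1e among the other pathway genes. The mean GC content was 66.9% in the member promoters, 63.7% in those of the other pathway genes and 53.8% in all. The TCF/LEF core CTTTGAT, on either strand, stood in 2 of 41 member promoters (4.88%), beside 3.73% of all and 3 of 63 (4.76%). A match is a description of letters and not a binding site.

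Among the ligands, Wnt4 and Wnt9a stood above wild type and Wnt8b below it, and 7 of 18 ligand genes had a probe set that reached the filter. Wnt4, a ligand that signals mostly without β-catenin and is known from kidney and from synapse formation, was kept on both array types. On B its intensity was 256 and 183 in the deficient pools and 86.6 in wild type. Both deficient pools lay above wild type, with a difference of 1.32 (SE 0.47, adjusted p = 0.146), which was 0.60 under the shared scaling. On A it read 56.6 and 53.7 against 24.7, a difference of 0.895 (SE 0.33, adjusted p = 0.204). Its wild-type value on A lay under the filter intensity, so that probe set was kept through the deficient pools and adds no support to the direction on B.

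Wnt9a, which acts through β-catenin in joint formation, read 153 and 102 in the deficient pools and 38.8 in wild type on B. Its wild-type value lay under the filter intensity, and the difference was 1.55 (SE 0.60, adjusted p = 0.194), or 0.79 under the shared scaling. Its probe set on A was below the filter, at 10.5 and 15.7 against 2.74. Wnt7b, which takes part in vessel growth in the central nervous system and in dendrite growth, read 120 and 135 against 88.9 on A, with both deficient pools above wild type by a similar amount (0.51 and 0.59, adjusted p = 0.353).

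Wnt8b, a ligand of the developing forebrain, ran the other way on B, at 51.3 and 146 against 212. The first deficient pool lay 1.59 below wild type on the log2 scale and the second 0.44 below, so the pools differed more from each other than the second did from wild type (mean −1.01, SE 0.51, adjusted p = 0.356). Wnt5a, the main ligand of the branch without β-catenin, read 86.5 and 136 against 103 on B. The normalized difference was 0.25 (SE 0.52, adjusted p = 0.905) and −0.51 under the shared scaling, so it had no settled direction. Wnt6 on A (59.9 and 91.2 against 77.8) and Wnt11 on A (40.8 and 35.6 against 38.0) each had 1 deficient pool on either side of wild type.

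**Figure D2:**
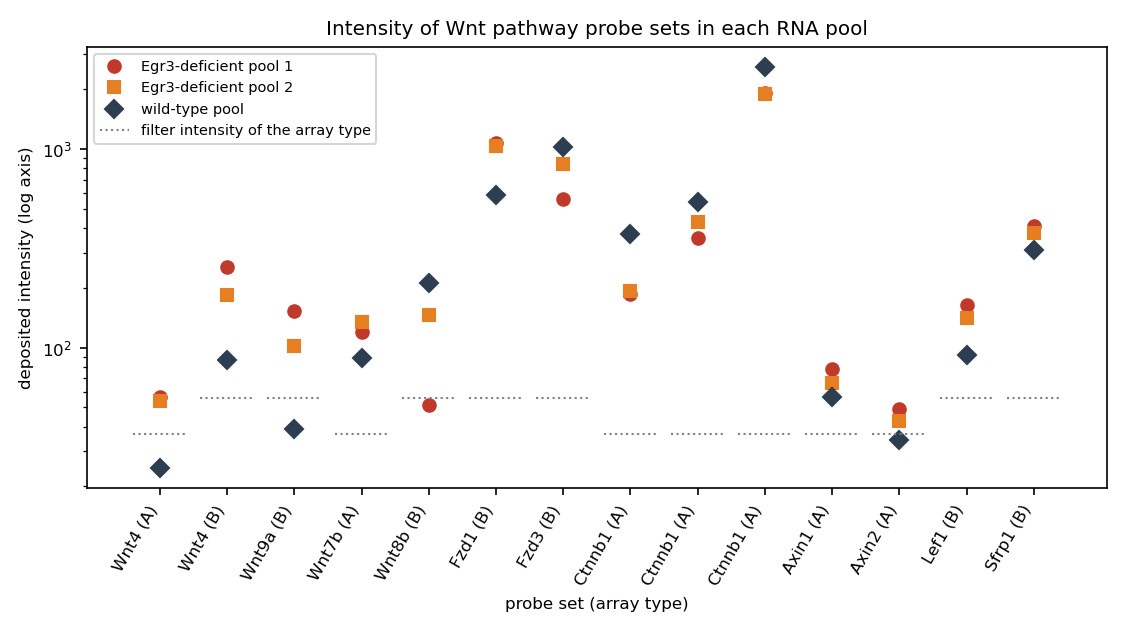
Deposited intensity (log axis) of 14 kept probe sets in the first (red circle) and second (orange square) pool labelled Egr3-deficient and in the wild-type pool (dark diamond), with the array type in brackets and the filter intensity dotted. Both deficient pools read above wild type for Wnt4, Wnt9a, Wnt7b, Fzd1, Axin1, Axin2, Lef1 and Sfrp1 and below it for Wnt8b, Fzd3 and Ctnnb1; on B, Sfrp1 is turned to below wild type when arrays are scaled on the shared probe sets.

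The frizzled receptors, which span the membrane and bind Wnt with a cysteine-rich domain, showed no common direction. A kept probe set was found for 9 of 10 genes. On A, 4 of 8 lay above wild type in both pools, 1 below and 3 on both sides, beside 47.9% above and 34.8% below of all. On B, 4 of 6 lay above and 1 below, beside 38.9% and 36.6% of all, but 1 above and 5 below under the shared scaling.

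Fzd1 on B read 1065 and 1033 in the deficient pools and 586 in wild type. The deficient pools were close to each other and above wild type, by 0.64 (SE 0.40, adjusted p = 0.497), or 0.25 under the shared scaling. Fzd3, the receptor that guides axons of the cord and corticospinal tract through the planar polarity branch, read 558 and 842 against 1024 on B. The difference was −0.75 (SE 0.41, adjusted p = 0.409), or −1.14 under the shared scaling. On A its kept probe set read 42.2 and 47.6 against 42.6, a difference of 0.17 (adjusted p = 0.783), so the probe sets of Fzd3 differed in sign.

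Fzd4, the receptor for norrin in vessels of the nervous system, also differed in sign between its probe sets. It read 41.5 and 86.0 against 94.7 on A (−0.41, adjusted p = 0.556), where only the first deficient pool stood well below wild type. On B it read 348 and 283 against 258 (0.28, adjusted p = 0.860), which turned to −0.31 under the shared scaling. Fzd6, which orients hair and other polarised cells, read 57.1 and 53.3 against 51.1 on A (0.20), while on B the deficient pools lay on either side of wild type, at 213 and 111 against 176 (−0.087).

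Fzd2 had 3 kept probe sets on A, all built on the same target accession. The first read 88.2 and 63.6 against 48.0 (0.61, adjusted p = 0.356). The others read 47.3 and 39.4 against 46.6 (0.035) and 57.8 and 43.8 against 53.3 (0.053), with the deficient pools on both sides of wild type. Fzd7 on A read 54.8 and 43.9 against 36.2 (0.42, adjusted p = 0.504), above wild type in both, with a wild-type value just under the filter intensity.

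Fzd5 on B read 117 and 135 against 103, a difference of 0.42 (adjusted p = 0.786) that turned to −0.32 under the shared scaling. Fzd9 on A (67.4 and 39.2 against 49.1) lay on both sides of wild type. Fzd10 on B (219 and 250 against 229) differed by 0.086 and turned to below wild type under the shared scaling. The opposite-strand transcript Fzd10os had 2 probe sets on B, at 269 and 239 against 178 (0.55, or −0.10 under the shared scaling) and at 147 and 41.7 against 114 (−0.29), which therefore differed in sign.

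Lrp6, the coreceptor that passes the signal to axin, had 1 kept probe set on A at 61.3 and 67.2 against 79.7 (−0.15, SE 0.33, adjusted p = 0.816). Its other probe set, under the filter, read 2.15 and 3.73 against 48.6, and it was the member that counted as 2-fold lower when the filter was dropped. Lrp5 was below the filter, at 1.36 and 8.63 against 9.14.

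Dishevelled relays the signal from frizzled, and among the 3 genes Dvl1 alone had kept probe sets, both on A. One read 281 and 203 in the deficient pools and 146 in wild type, with both pools above it (0.72, SE 0.34, adjusted p = 0.274). The other read 773 and 742 against 768 and differed by −0.063 (adjusted p = 0.902), so the probe sets of Dvl1 differed in sign. Dvl2 read 11.7 and 28.0 against 39.7, below the filter, as did Dvl3.

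β-catenin, encoded by Ctnnb1, joins cadherins at the membrane and TCF/LEF factors in the nucleus, and its 3 kept probe sets on A all lay below wild type in both deficient pools. The first read 1915 and 1901 in the deficient pools and 2583 in wild type (−0.59, SE 0.20, adjusted p = 0.189). The second read 186 and 193 against 374 (−0.89, SE 0.31, adjusted p = 0.189). The third read 354 and 431 against 544 (−0.47, SE 0.30, adjusted p = 0.379). In every one the deficient pools lay closer to each other than either did to wild type. The 3 probe sets share their transcript and their RNA and are not replicates of each other.

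Axin1 and Axin2, the scaffolds of the destruction complex, each had 1 kept probe set on A, above wild type in both pools, and 1 under the filter, below it in both. Axin1 read 78.2 and 66.3 against 56.5 (0.39, SE 0.34, adjusted p = 0.526). Axin2, which is itself switched on by β-catenin signalling, read 48.8 and 42.7 against 34.4 (0.39, SE 0.34, adjusted p = 0.518). Both differences were close to their standard error, and the wild-type value of Axin2 lay under the filter intensity. The probe sets that were not kept read 27.4 and 18.8 against 43.2 for Axin1 (−0.50) and 2.72 and 2.24 against 7.44 for Axin2 (−0.32).

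Of the TCF/LEF factors, which bind DNA and recruit β-catenin, Lef1 on B was the only 1 of 3 genes with a kept probe set. It read 164 and 141 in the deficient pools and 92.2 in wild type, with both above it (0.78, SE 0.49, adjusted p = 0.499), but the difference was 0.060 under the shared scaling. Its probe set on A was below the filter, at 10.4 and 13.8 against 3.40. Tcf7l1 read 33.8 and 17.5 against 8.30 and 24.9 and 37.6 against 26.7 in its 2 probe sets, and none of the 4 for Tcf7l2, the factor of maturing oligodendrocytes, read above 28.2.

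The secreted inhibitors fall into dickkopf proteins, which block Lrp5 and Lrp6, and secreted frizzled-related proteins, which bind Wnt itself. Dkk3, a divergent dickkopf made by many neurons, was the 1 of 5 dickkopf genes with kept probe sets. Its probe sets on A differed in sign, at 116 and 136 against 177 (−0.36, adjusted p = 0.529) and at 164 and 189 against 147 (0.32, adjusted p = 0.571).

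All 4 secreted frizzled-related genes were measured above the filter. After quantile normalization Sfrp1 lay above wild type in both pools in its 3 kept probe sets, at 68.7 and 74.7 against 56.5 (0.39, adjusted p = 0.506) and at 42.0 and 54.6 against 45.5 (0.18) on A, and at 408 and 376 against 310 on B (0.30, adjusted p = 0.841), the last turning to −0.25 under the shared scaling. In the second of these the deposited intensity of the first deficient pool was below wild type. Of its 2 probe sets under the filter on A, 1 lay below wild type in both pools (mean difference −0.43) and 1 on both sides. Sfrp2 read 63.5 and 71.2 against 55.7 on A (0.33, adjusted p = 0.569). Sfrp5 read 340 and 327 against 273 on B, a difference of 0.28 that turned to −0.30 under the shared scaling. Sfrp4 ran the other way on A, at 79.8 and 82.3 against 114 (−0.33, adjusted p = 0.569).

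Of the 10 genes with more than 1 kept probe set, 4 (Ctnnb1, Fzd2, Sfrp1 and Wnt4) had mean differences of 1 sign and 6 (Dkk3, Dvl1, Fzd10os, Fzd3, Fzd4 and Fzd6) of both signs. A kept probe set was missing for 21 genes. These were the ligands Wnt1, Wnt10a, Wnt10b, Wnt16, Wnt2, Wnt2b, Wnt3, Wnt3a, Wnt5b, Wnt8a and Wnt9b, with Fzd8, Lrp5, Dvl2, Dvl3, Dkk1, Dkk2, Dkk4, Dkkl1, Tcf7l1 and Tcf7l2. Intensities of member probe sets that were not kept ran from 0.709 to 48.6 on A and from 3.98 to 72.3 on B. The dimmest kept member had a mean log2 value of 5.76 on A (Wnt11) and 6.66 on B (Wnt9a), and the brightest one not kept had 5.66 (another Fzd3 probe set) and 5.93 (Wnt6). Wnt10a, at 32.7 and 43.8 against 8.83 on A, was the member that counted as 2-fold higher when the filter was dropped.

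Around the members, 66 of 68 other Wnt pathway genes were measured by 166 probe sets. On A, 67 of 93 were kept, with 25 above wild type in both deficient pools, 23 below and a median of −0.038. On B, 53 of 73 were kept, with 13 above, 25 below and a median of −0.075. Of all kept probe sets, 47.9% lay above and 34.8% below on A, and 38.9% and 36.6% on B. limma called 0 on A and 0 on B in either direction. At least 2-fold higher in both pools were 0 on A and 2 on B, beside 1.20% and 4.27% of all. An unadjusted p under 0.05 was found for 1 above and 6 below wild type on A, and for 5 above and 7 below on B, that is of 67 and 53 kept probe sets, beside shares over all features of 7.93% above and 12.7% below (A) and of 7.40% and 6.83% (B).

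The destruction complex, which marks β-catenin for degradation, held more probe sets below wild type than above it. On B, 17 of its 21 kept probe sets lay below in both pools and 1 above (median −0.55), beside 36.6% and 38.9% of all kept probe sets. Under the shared scaling 21 of 21 lay below (median −1.17), but that scaling also moved the median of all kept probe sets on B to −0.66. On A, 11 of 22 lay below and 7 above (median −0.072), beside 34.8% and 47.9% of all. Tnks2, a tankyrase that turns axin over, read 145 and 283 against 644 on A (−1.57, SE 0.40, adjusted p = 0.161). It was the only one of the 67 kept pathway probe sets on A at least 2-fold lower in both pools, beside 4.35% of all kept probe sets. On B 0 of 53 were, beside 1.80% of all. On B Tnks2 read 322 and 721 against 749, where the second deficient pool was close to wild type (−0.78).

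Apc, the scaffold lost in colon cancer, read 1001 and 1850 against 2440 on B (−1.16, SE 0.38, adjusted p = 0.0996) and 106 and 169 against 298 on A (−1.02, adjusted p = 0.191). Csnk1a1, the priming kinase of β-catenin, read 185 and 369 against 661 on B (−1.38, adjusted p = 0.0999) and 238 and 327 against 567 on A (−0.99, adjusted p = 0.177). Gsk3b, the kinase that marks β-catenin, lay below wild type in both pools in its kept probe set on A (46.3 and 68.5 against 134) and in all 5 on B, with mean differences from −1.16 to −0.24. In each of the named Tnks2, Apc, Csnk1a1 and Gsk3b probe sets the first deficient pool lay further from wild type than the second. Apc2, the neuronal relative of Apc, ran the other way on A, at 126 and 120 against 70.3 (0.78, adjusted p = 0.233).

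Inhibitors at the membrane or outside the cell lay mostly above wild type on B, where 6 of 9 kept probe sets did so in both pools and 2 lay below (median 0.57). Of all kept probe sets on B, 38.9% lay above and 36.6% below. Under the shared scaling 3 inhibitor probe sets lay above and 3 below (median −0.13). The naked cuticle genes, whose proteins bind dishevelled, led them. Nkd2 read 190 and 218 in the deficient pools and 67.5 in wild type (1.54, SE 0.47, adjusted p = 0.0776), and 0.82 under the shared scaling. Nkd1 read 188 and 215 against 76.9 (1.38, SE 0.47, adjusted p = 0.123), with further probe sets at 600 and 453 against 258 (0.97) and at 208 and 211 against 149 (0.54). On A, Nkd1 (45.2 and 30.8 against 38.5) and Nkd2 (32.5 and 46.0 against 46.5) lay on both sides of wild type.

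Wls, which carries Wnt proteins to the cell surface, lay below wild type in all 3 of its probe sets on A, at 29.2 and 58.0 against 120 in the one furthest from it (−1.13, SE 0.37, adjusted p = 0.180). Kremen1, a partner of the dickkopf proteins, had probe sets of both signs on B, at 457 and 204 against 156 (0.95, adjusted p = 0.345) and at 54.1 and 80.9 against 112 (−0.46). Common targets of β-catenin signalling showed no shared direction, with 1 of 5 kept probe sets above and 3 below wild type on A, beside 47.9% and 34.8% of all. Ccnd1, the cyclin of the first growth phase, read 86.6 and 80.2 against 101, 195 and 177 against 179, and 172 and 223 against 188 in its 3 probe sets.

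**Figure D3:**
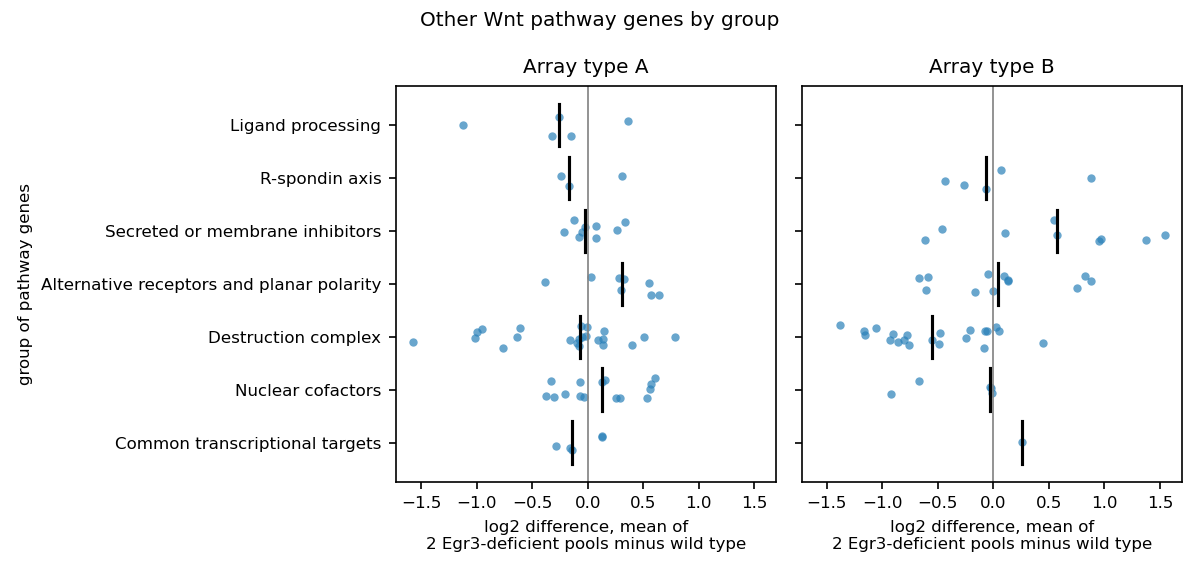
Mean log2 difference (2 pools labelled Egr3-deficient minus wild type, after quantile normalization) of each kept probe set of the other Wnt pathway genes, by group, array type A left and B right; a point is a probe set, its height within a group is arbitrary, and black bars are group medians. On B the destruction complex has a median of −0.55 and the secreted or membrane inhibitors of 0.57, which became −1.17 and −0.13 when arrays were scaled on the shared probe sets. With that scaling the median of all kept probe sets on B was −0.66.

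With 2 deficient pools against 1 wild-type pool, 1 residual degree of freedom is left, and only the spread between the deficient pools feeds it. The p-values therefore rest mostly on a variance that limma fitted over all kept probe sets. Beside that 1, this prior counted as 6.54 for array type A and 52.3 for array type B. Spread among wild-type pools was not measured. Leaving out either deficient pool leaves 1 pool on each side, a value with no test. Without the first pool 1 member on B was at least 2-fold lower, and without the second 2 were, against 0 with both.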

How the data were processed

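RNA of 3 pools was measured on 2 array types, A and B. The deposited values are 1 linear intensity for each probe set on each array, scaled by the authors so that the mean after trimming 2% from each tail was about 150.02 to 150.06. The program that summarised the probes, with its version, was not given in the sources used here. Detection calls were not used here. Gene symbols came from the platform annotation (A: 20380 probe sets with 1 symbol, 691 with several, 1555 with none; B: 14661, 245 and 7605), and all member probe sets matched the RefSeq table by gene identifier. From the deposited intensity, log2(intensity + 16) was computed, without 64 control probe sets per type, quantile normalized within the array type, and kept where the mean reached the 40th percentile (13576 probe sets on A, 13507 on B). Differences of dim genes are understated on this scale. limma 3.58.1 in R 4.3.3 (lmFit, eBayes with trend, Benjamini-Hochberg within the array type, threshold 0.05) compared the 2 deficient pools with the wild-type pool. Prior degrees of freedom were 6.54 (A) and 52.3 (B), so standard errors hardly measure the spread of single probe sets on B, and the single wild-type pool is taken to vary like the others. The procedure was tested on simulated data. Members and lists were chosen with earlier results of these data known. Values are given for members past the test or 2-fold apart, for the core pathway genes, for the 3 kept genes per role with the most signal or the largest smaller difference, and for genes whose probe sets differ in sign; of the other pathway genes, for those past the test or 2-fold apart and the 3 furthest in each direction. Nkd, Gsk3b, Apc2, Ccnd1 and second probe sets of named genes were added after their values were seen.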

Additional observations from a re-analysis of the deposited data

How the results depend on the processing

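No Wnt member passed the adjusted threshold on either array type under any alternative fit run. On A the members' median difference was 0.056 without quantile normalization, 0.057 with scaling on the shared probe sets and −0.33 with a filter at the 60th percentile, and leaving out a deficient pool gave 0.12 to 0.25. The count on A that was at least 2-fold higher became 1 with a pseudocount of 1 and 1 without a filter, and the count 2-fold lower became 1 without a filter. On B the count 2-fold higher became 1 without quantile normalization, 1 with the 60th percentile filter, 0 with a pseudocount of 64 and 0 with the shared scaling, which was chosen after seeing the data. The median on B was 0.43 with median centring and −0.31 with the shared scaling, and 0.26 to 0.36 with a deficient pool left out, when the count 2-fold lower was 1 to 2. Other pathway genes past the threshold became 1 on A with median centring (Tnks2), and on B 2 with the 60th percentile filter (Apc and Nkd2) and 1 with robust eBayes (Csnk1a1). Single members that changed sign included the following. Wnt6 on A gave −0.056 without quantile normalization, −0.056 with the shared scaling and −0.13 without the second deficient pool. The Dvl1 probe set whose main difference was −0.063 gave 0.10 with median centring. On B the shared scaling gave −0.25 for Sfrp1, −0.31 for Fzd4, −0.30 for Sfrp5, −0.10 for Fzd10os, −0.32 for Fzd5 and −0.51 for Wnt5a, and leaving out a deficient pool gave −1.07 to 0.48 for the other Fzd10os probe set and −0.53 to 0.36 for Fzd6. Fzd10 on B also turned to below wild type under the shared scaling. On A, the second deficient pool alone lay below wild type for Wnt11 (−0.055), Fzd9 (−0.21) and 2 Fzd2 probe sets (−0.15 and −0.18), whose means were above it. No paired analysis was possible because the labels state no pairing and wild type has 1 pool per array type. Signals near background limit the members that were not kept, and the cause of these shifts was not tested.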

Other observations

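The branch of the pathway that works without β-catenin was measured by further receptors and planar polarity genes. On A, 6 of 8 of their kept probe sets lay above wild type in both pools labelled Egr3-deficient and 1 below (median 0.31), and none passed the test. Of all kept probe sets on A, 47.9% lay above and 34.8% below. Ryk, a Wnt receptor that steers axons, read 53.1 and 63.4 in the deficient pools and 35.0 in wild type on A (0.65, SE 0.33, adjusted p = 0.296), and 140 and 137 against 77.9 on B (0.88, SE 0.51, adjusted p = 0.450). Celsr2, a planar polarity cadherin, read 239 and 245 against 166 on A (0.57, adjusted p = 0.318). On B, 5 of 12 lay above and 2 below, beside 38.9% and 36.6% of all. With arrays scaled on the shared probe sets, 3 lay above and 8 below. Daam1, a formin downstream of dishevelled, had probe sets of both signs on B, at 1977 and 1884 against 910 (0.82, adjusted p = 0.273), 517 and 720 against 855 (−0.67) and 274 and 441 against 507 (−0.59).

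Nuclear cofactors of β-catenin lay above wild type in 7 of 15 kept probe sets on A and below in 4 (median 0.13), and in 0 and 3 of 5 on B (median −0.030). The shares of all kept probe sets were 47.9% above and 34.8% below on A, and 38.9% and 36.6% on B. Pygo2, which links β-catenin to chromatin, read 251 and 160 against 133 on A (0.61, adjusted p = 0.365), with the first deficient pool further from wild type than the second. The R-spondin axis, which stabilises frizzled receptors, was measured by 3 kept probe sets on A, 1 of them above and 1 below wild type in both pools, and by 5 on B, again with 1 above and 1 below. Its receptor Lgr6 read 114 and 125 against 66.9 on B (0.88, SE 0.55, adjusted p = 0.495).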
